A study of Enchytraeus albidus with 42 samples.

Results

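The 4 transcripts named as tubulin or stathmin were measured on 42 one-colour arrays of the potworm Enchytraeus albidus, a small soil annelid used in ecotoxicology. They were chosen by name, as the rows of the study's list of affected transcripts whose name contains tubulin or stathmin, out of 225 named rows in that list and 1035 transcripts on the array. The 4 members were stathmin 1 oncoprotein 18 variant 8 (EAC00992, array sequence Ealb_Pest_P4_D3_SP6_2091840), tubulin alpha chain (EAC00175, Contig97), beta tubulin (EAC00377, Ealb_Met_P5_D7_SP6_2090466) and tubulin beta-2b chain-like (EAC00485, Ealb_Met_P8_B9_SP6_2091137), called stathmin, alpha tubulin, beta tubulin and beta-2b tubulin below. The study put a transcript on its list because a t-test on these same arrays had separated it from its control in at least 1 treatment, so the number of members that differ from a control is not independent evidence. Array sequences without a name were not searched, and further tubulins among them were not analysed here.

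Adult worms with a well developed clitellum, the gland that forms the egg cocoon, were kept in soil for 2 days at concentrations that reduce reproduction by 10%, 20%, 50% and 90% (EC10, EC20, EC50 and EC90). The insecticide dimethoate was tested at 0.1, 0.5, 2 and 25 mg per kg of soil, the herbicide atrazine at 0.2, 0.5, 3 and 50 mg per kg, and the fungicide carbendazim at 0.05, 0.1, 0.5 and 3 mg per kg. Dimethoate was compared with a water control, and atrazine and carbendazim, which were brought into the soil in acetone, with an acetone solvent control. Each of the 14 groups had 3 arrays, each with RNA from the pooled whole bodies of 1 vessel.

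Microtubules are hollow filaments built from dimers of alpha and beta tubulin, and they form the mitotic spindle, the tracks of transport in nerve cells and the core of cilia. Stathmin binds free tubulin dimers and promotes the shortening of microtubules, as known mostly from vertebrates, where its gene is most active in dividing cells and neurons. Carbendazim is a benzimidazole, a class of compounds that bind beta tubulin of fungi and disturb microtubule assembly, whereas dimethoate inhibits acetylcholinesterase and atrazine blocks photosynthesis in plants.

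All spots of the 4 members were well above background on all 42 arrays, and 0 arrays had a saturated spot of any of them. Each mean rested on 10 to 15 spots of 1 probe, and the median SD between these spots was between 0.06 and 0.09 log2. Values are normalized log2 intensities, and because each probe binds with its own strength, a level is compared only with levels of the same probe. Each member's change was tested with limma in a model of all 14 groups, and it passed the test where the p value adjusted over all 1035 transcripts was under 0.05. The share of all transcripts with signals well above background ran from 74.7% to 94.5% over the arrays. The arrays lay on 8 slides, each of which held only some groups. The arrays of 1 scan (dimethoate EC10 replicate 1 and dimethoate EC20 replicate 2) stood apart, with residual SDs of 0.891 and 0.845 log2 against 0.285 to 0.618 in the others. Of the muscle transcripts listed as markers, 11 of 12 were well above background on all arrays, whereas 0 of 2 gut markers and 0 of 1 markers of ciliated cells and sperm (tektin 2) were. The mean level of the muscle markers was between 9.82 and 10.08 in carbendazim EC90 arrays and between 9.70 and 10.14 in arrays of both controls. That of the 2 blood markers, of which 1 was well above background on all arrays, was between 7.77 and 7.89 in carbendazim EC90 arrays and between 6.39 and 7.65 in the controls, and that of the gut markers between 2.62 and 3.47 and between 1.87 and 2.38. The blood and gut markers were thus higher on all carbendazim EC90 arrays than on all control arrays. The share of all transcripts separated in this way from both controls was not counted, and 18.2% were above every solvent control array. Tektin 2 overlapped with the controls, at 1.95 to 2.67 in carbendazim EC90 arrays and 2.03 to 3.23 in the controls. In dimethoate EC90 arrays the gut markers, between 2.90 and 4.06, were also above all control arrays. The blood markers overlapped with the controls there, between 6.53 and 7.90. In atrazine EC90 and carbendazim EC50 the blood and the gut markers overlapped with the controls. The part of these markers in the results below was not tested. As RNA of whole worms was measured, fewer cells of a type and less RNA per cell cannot be told apart.

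**Figure D1:**
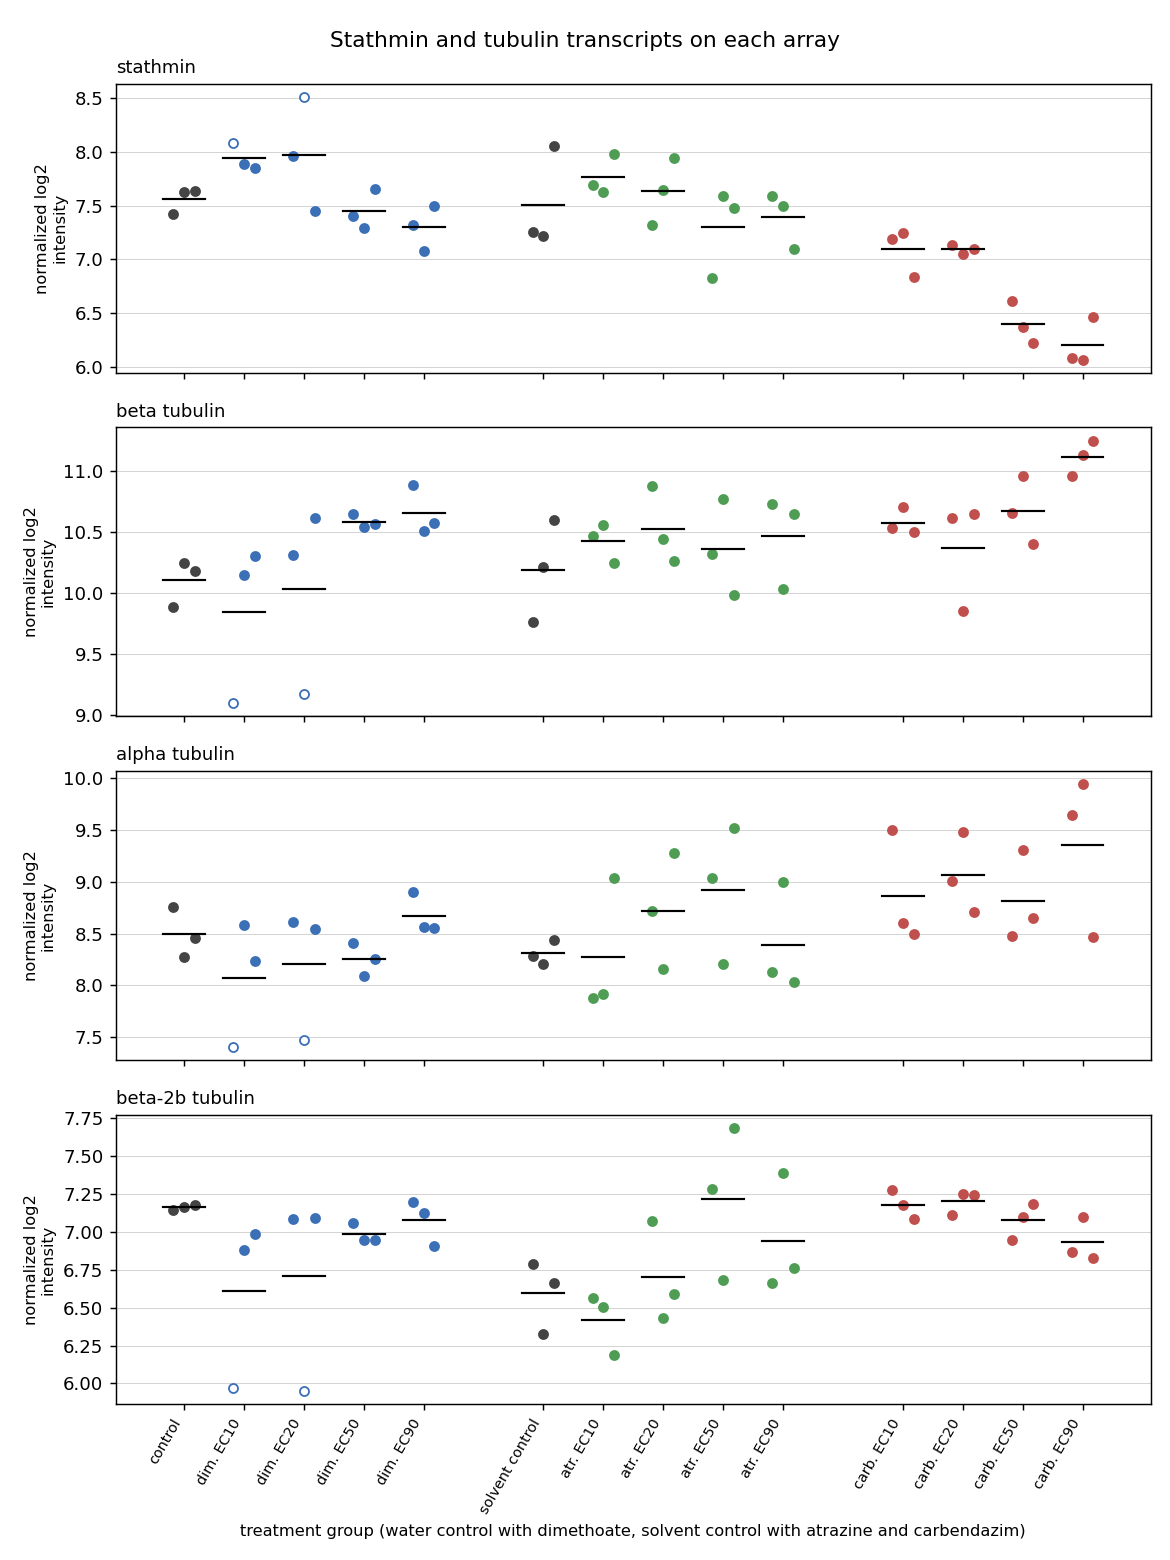
Normalized log2 intensity of each of the 4 transcripts (vertical axes) on each of 42 arrays, by treatment group (horizontal axis); points are arrays, short lines are means of 3 arrays, and open points are the arrays of the deviating scan. Stathmin is lowest in carbendazim EC50 and EC90, where beta tubulin has its highest group means.

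Stathmin was the member that varied most between groups, and it was lowest after carbendazim. Its 14 group means spanned 1.76 log2, between 6.21 in carbendazim EC90 and 7.97 in dimethoate EC20, and the SD over the group means was larger than for 91.0% of all transcripts. The 4 lowest groups were those of carbendazim. Of the 13 steps between neighbours in the order of the means, only the step of 0.69 log2 between carbendazim EC20 and carbendazim EC50 was larger than the larger SD of the pair, so neighbours elsewhere did not differ beyond their spread.

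Stathmin was lower at the higher carbendazim concentrations, with estimates of less than 0.5 times the solvent control level. At EC50 this did not hold without 1 high solvent control array, where the log2 change was -0.83 against -1.10 with it. In the solvent control arrays stathmin had normalized log2 intensities of 7.26, 7.22 and 8.05, and the array at 8.05 stood above the other two. Carbendazim EC10 arrays had 7.19, 7.25 and 6.84, and EC20 arrays had 7.13, 7.05 and 7.09. The EC10 arrays overlapped with the solvent control and the EC20 arrays were all below it, as in 11.7% of all transcripts. EC50 arrays had 6.62, 6.37 and 6.22, and EC90 arrays had 6.09, 6.07 and 6.46. These arrays lay below every array of the other 12 groups, and the share of all transcripts of which this held was not counted. Below every solvent control array were 10.1% of all transcripts at EC50 and 10.8% at EC90.

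The log2 change of stathmin against the solvent control was -1.10 at carbendazim EC50 (SE 0.24, 95% interval -1.60 to -0.61, adjusted p = 0.0247) and -1.30 at EC90 (SE 0.24, -1.79 to -0.81, adjusted p = 0.000989), which are 0.465 and 0.406 times the solvent control level. Of all transcripts 0.386% passed at EC50 and 3.77% at EC90, in contrasts that the study had used to choose the members. At EC10 and EC20 the changes were -0.41 and -0.42, with intervals of -0.91 to 0.08 for both and adjusted p values of 0.57 and 0.529, where 0.193% and 0.0966% of all transcripts passed. The linear trend over the solvent control and the 4 concentrations was -0.33 log2 per concentration step (SE 0.05, adjusted p = 0.000224), where 2.03% of all transcripts passed.

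All 6 arrays of the higher were below all 6 arrays of the lower concentrations, and the share of all transcripts separated so was not counted. EC50 and EC90 combined were below EC10 and EC20 (log2 change -0.79, SE 0.17, 95% interval -1.14 to -0.44, adjusted p = 0.0132). This contrast uses no control array, but its arrays are among those from which the study made its list, and 0.966% of all transcripts passed in it. The adjusted p was 0.0509 without carbendazim EC10 replicate 2 and 0.0549 without EC90 replicate 1. The lower concentrations lay on 1 slide and the higher on others, so slide and concentration cannot be told apart here.

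Without solvent control replicate 3, the high array, the change at EC50 was -0.83 with an adjusted p of 0.165, and without carbendazim EC50 replicate 2 or 3 the adjusted p was 0.221 and 0.171, whereas the call at EC90 was kept in each omission of 1 array. With slide as a fixed block the change was -0.85 at EC50 (adjusted p = 0.958) and -0.98 at EC90 (0.292), and the trend was -0.26 per step (0.617). Within the slide that held EC50, EC90 and a solvent control array, 5 carbendazim arrays between 6.09 and 6.62 stood against 1 solvent control array at 7.26, a difference of -0.90.

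**Figure D2:**
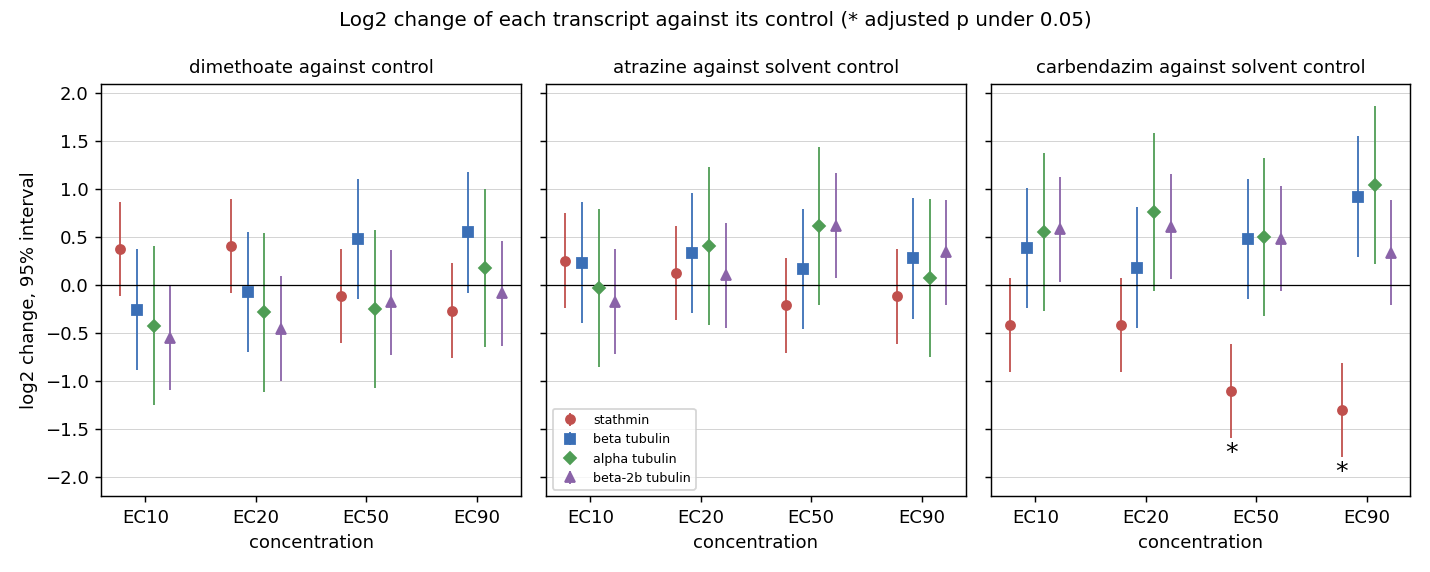
Log2 change of each transcript against its control (vertical axis) at 4 concentrations (horizontal axis) of each pesticide; points are limma estimates, bars 95% intervals, and asterisks mark an adjusted p under 0.05. The asterisks stand at stathmin in carbendazim EC50 and EC90, at -1.10 and -1.30.

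Stathmin was lower at the higher than at the lower dimethoate concentrations, without a call against the water control. Water control arrays had 7.43, 7.63 and 7.63. Dimethoate EC10 arrays had 8.08, 7.89 and 7.85, all above the control as in 3.38% of all transcripts, and EC20 arrays had 7.96, 8.51 and 7.44, which overlapped with it. EC50 arrays had 7.40, 7.29 and 7.66, and EC90 arrays had 7.32, 7.08 and 7.50, both overlapping with the control. The means of EC10 and EC20 were above the control and those of EC50 and EC90 below it, with changes of 0.38, 0.41, -0.11 and -0.26 and adjusted p values between 0.435 and 0.998. Of all transcripts 0% passed at EC10 and at EC20, 1.55% at EC50 and 3.19% at EC90. EC50 and EC90 combined were below EC10 and EC20 (log2 change -0.58, SE 0.17, adjusted p = 0.0179), a contrast in which 17.3% of all transcripts passed. The trend over the water control and the 4 dimethoate concentrations was -0.10 log2 per step (adjusted p = 0.408), where 4.73% of all transcripts passed. Without both arrays of the deviating scan, where stathmin had 8.08 and 8.51, the change between the lower and the higher concentrations was -0.41 with an adjusted p of 0.14, and it missed the threshold without either of them alone. No slide held both the lower and the higher dimethoate concentrations, so slide and concentration cannot be told apart in it.

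In atrazine, stathmin was not called at any concentration. EC10 arrays had 7.69, 7.63 and 7.97, and EC20 arrays had 7.32, 7.64 and 7.94. EC50 arrays had 6.83, 7.59 and 7.48, and EC90 arrays had 7.59, 7.50 and 7.09. Each of these groups overlapped with the solvent control, and the changes were 0.26, 0.12, -0.21 and -0.12 with adjusted p values between 0.826 and 0.905, where 0% of all transcripts passed at any concentration. The 95% interval at EC90 was -0.61 to 0.38. EC50 and EC90 together differed from EC10 and EC20 by -0.35 log2 (adjusted p = 0.312), where 0% of all transcripts passed, and the trend was -0.07 log2 per step (adjusted p = 0.543), where 1.35% passed.

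Set side by side at the same effect concentration, stathmin was lower after carbendazim than after atrazine at EC90, with a difference of -1.18 log2 (SE 0.24, 95% interval -1.68 to -0.69, adjusted p = 0.004). In that contrast 2.8% of all transcripts passed. With slide as a fixed block the difference was -0.53 (adjusted p = 0.978), and in a model of only these groups its adjusted p was 0.0582. At EC10, EC20 and EC50 the differences were -0.67, -0.54 and -0.89, with adjusted p values of 0.243, 0.955 and 0.362, where 0.193%, 0% and 0% of all transcripts passed. All carbendazim arrays were below all atrazine arrays at each of the 4 concentrations, as in 12.8%, 6.38%, 3.38% and 9.66% of all transcripts. The difference at EC90 between the change after carbendazim and the change after dimethoate was -1.04 (interval -1.73 to -0.34, adjusted p = 0.295). Of the 48 differences between pesticides computed for the 4 members, the one between carbendazim and atrazine EC90 was the only call, against 0.66% of all transcripts over the same 12 contrasts. The concentrations in mg per kg differed between pesticides, and carbendazim EC90 and atrazine EC90 shared no slide.

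Beta tubulin is 1 subunit of the dimer and the known target of benzimidazoles in fungi. Its transcript had its highest level in carbendazim EC90, without passing the test. There it was above every solvent control array, as were 18.2% of all transcripts. In solvent control arrays it had 9.76, 10.21 and 10.60. Carbendazim EC10 arrays had 10.53, 10.70 and 10.50, EC20 arrays had 10.62, 9.86 and 10.65, and EC50 arrays had 10.66, 10.96 and 10.40, and each of these groups overlapped with the solvent control. EC90 arrays had 10.96, 11.13 and 11.25. The step of 0.44 log2 between the means of carbendazim EC90 and carbendazim EC50 was the only one of 13 that was larger than the larger SD of the pair.

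The log2 changes of beta tubulin against the solvent control were 0.39, 0.18, 0.48 and 0.92 at the 4 carbendazim concentrations. At EC90 the 95% interval was 0.29 to 1.55 with an adjusted p of 0.0859, where 3.77% of all transcripts passed. With both arrays of the deviating scan left out of the model, the same change of 0.92 had an adjusted p of 0.00704. Those arrays belong to dimethoate, and they enter this contrast through the shared estimate of the spread. The median residual SD of all transcripts was 0.413 log2 with them and 0.320 without. The spread thus fell across the array, not for beta tubulin alone. The trend over the carbendazim concentrations was 0.19 log2 per step (adjusted p = 0.145), where 2.03% of all transcripts passed. Without the deviating arrays its adjusted p was 0.0139. The shares of all transcripts that passed without these arrays are not given here.

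After dimethoate, beta tubulin was higher at the higher than at the lower concentrations. Water control arrays had 9.89, 10.24 and 10.18. EC10 arrays had 9.10, 10.15 and 10.30, and EC20 arrays had 10.31, 9.17 and 10.61, where the low values of 9.10 and 9.17 came from the deviating scan. EC50 arrays had 10.65, 10.55 and 10.57, and EC90 arrays had 10.88, 10.51 and 10.58, all above the water control, as in 15.6% of all transcripts at EC50 and 14.1% at EC90. The changes at EC50 and EC90 were 0.48 and 0.55 with adjusted p values of 0.894 and 0.666. EC50 and EC90 together were 0.68 log2 above EC10 and EC20 (SE 0.22, adjusted p = 0.0302), in the contrast in which 17.3% of all transcripts passed. The adjusted p was 0.0609 without EC50 replicate 1 and 0.0791 without EC90 replicate 1. Slide and concentration cannot be told apart here either. Without both deviating arrays this difference was 0.28 with an adjusted p of 0.406, and the changes at EC10 and EC20 turned to 0.12 and 0.36, against -0.26 and -0.07 with them.

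In atrazine arrays beta tubulin lay between 9.98 and 10.88, and all 4 groups overlapped with the solvent control, with changes between 0.17 and 0.34.

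Alpha tubulin, the partner of beta tubulin in the dimer, was above every solvent control array in all 12 carbendazim arrays. The solvent control arrays lay close together at 8.28, 8.21 and 8.43. Their SD of 0.11 was the smallest of the 14 groups for this transcript, against a median of 0.54. The lowest carbendazim array, at 8.47, was close to the highest of them. Carbendazim EC10 arrays had 9.50, 8.61 and 8.50, EC20 arrays had 9.01, 9.48 and 8.71, EC50 arrays had 8.48, 9.30 and 8.65, and EC90 arrays had 9.65, 9.94 and 8.47. The spread within these groups was wide, with SDs between 0.39 and 0.78. The changes were 0.56, 0.76, 0.50 and 1.05, and at EC90 the interval was 0.22 to 1.87 with an adjusted p of 0.152. Separation of this kind was common at single concentrations, and the share of all transcripts above in all 12 arrays was not counted. All 3 carbendazim arrays were above the solvent control arrays in 12.2% of all transcripts for EC10, in 15.5% for EC20, in 15.7% for EC50 and in 18.2% for EC90.

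In dimethoate arrays alpha tubulin overlapped with the water control (8.75, 8.27 and 8.46) at all 4 concentrations, and its lowest values of all, 7.40 and 7.47, were those of the deviating scan. In atrazine arrays it lay between 7.88 and 9.52, with changes between -0.03 and 0.61, and all 4 groups overlapped with the solvent control. No neighbours in the order of its 14 means differed by more than the larger SD of the pair.

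Beta-2b tubulin is named after a vertebrate beta tubulin isotype that is abundant in nerve tissue. It was the only member whose controls did not overlap, with 6.79, 6.33 and 6.67 in solvent control arrays and 7.15, 7.16 and 7.18 in water control arrays (log2 change -0.57, SE 0.27, adjusted p = 0.408, where 1.84% of all transcripts passed). Of all transcripts 13.1% were lower in all solvent control arrays in the same way, a contrast that was not used to choose the members. The 12 carbendazim arrays, between 6.83 and 7.28, were all above the solvent control, as in 12.2% to 18.2% of all transcripts at each concentration. The share for all 12 arrays together was not counted. The changes of beta-2b tubulin were 0.58, 0.61, 0.48 and 0.34, with adjusted p values between 0.374 and 0.546. Its means in carbendazim EC10 and EC20, 7.18 and 7.20, were close to the 7.16 of the water control, to which carbendazim was not compared.

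Beta-2b tubulin was below every water control array in dimethoate EC10, EC20 and EC50. EC10 arrays had 5.97, 6.88 and 6.98, EC20 arrays had 7.08, 5.95 and 7.09, and EC50 arrays had 7.06, 6.95 and 6.95. The 3 water control arrays had an SD of 0.02, so small that values of 7.06 to 7.09 already lay outside them. The log2 changes were -0.55, -0.45 and -0.18 with adjusted p values between 0.435 and 0.998, and -0.23 and -0.07 at EC10 and EC20 without the deviating arrays. Such separation downwards was seen in 6.18%, 6.67% and 13.2% of all transcripts. After atrazine it was highest at EC50, with 7.28, 6.68 and 7.68 and a change of 0.62 (interval 0.07 to 1.17, adjusted p = 0.459). Atrazine EC50 and EC90 together were 0.52 log2 above EC10 and EC20 (adjusted p = 0.18), where 0% of all transcripts passed. Without the deviating arrays in the model the same difference had an adjusted p of 0.0249. The median residual SD of all transcripts was then 0.320 log2, against 0.413 with them, and the share that passed is not given here.

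The 3 tubulins gave 36 contrasts of a concentration with its control. Of these limma called 0 after adjustment, where 0% to 3.77% of all transcripts passed in each. At an unadjusted limma p under 0.05 there were 6, against 9.44% of all transcripts over the same 12 contrasts, and the t-test of the study's methods gave 8 without adjustment, against 10% of all transcripts, and 0 after it. In carbendazim all 12 changes of the tubulins were positive, and in 9 of the 12 the arrays were all above the solvent control, where between 12.2% and 18.2% of all transcripts were so at each concentration. The share of all transcripts with positive changes was not counted. All carbendazim and atrazine changes of a tubulin use the same solvent control arrays, so they are not independent. The dimethoate contrasts had 3 positive changes of 12 and the atrazine contrasts 10 of 12. Without the arrays of the deviating scan, alpha tubulin in dimethoate EC20 (0.084) and beta tubulin in dimethoate EC10 (0.12) and EC20 (0.36) also turned positive. Over all 4 members, limma called 2 of 48 contrasts, both stathmin, where 0.386% and 3.77% of all transcripts passed.

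Stathmin was set against the tubulins within each array, as its log2 intensity minus the mean of the 3 tubulins. This difference removes scaling between arrays, and its sign has no meaning because the probes differ. After carbendazim it was lower than in the solvent control on every array. Solvent control arrays had -1.02, -1.03 and -0.52. Carbendazim EC10 arrays had -1.91, -1.58 and -1.85, EC20 arrays had -1.78, -1.81 and -1.77, EC50 arrays had -2.08, -2.75 and -2.52, and EC90 arrays had -3.07, -3.32 and -2.39. The group means were -1.78, -1.79, -2.45 and -2.93 at the 4 concentrations, against -0.86 in the solvent control.

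**Figure D3:**
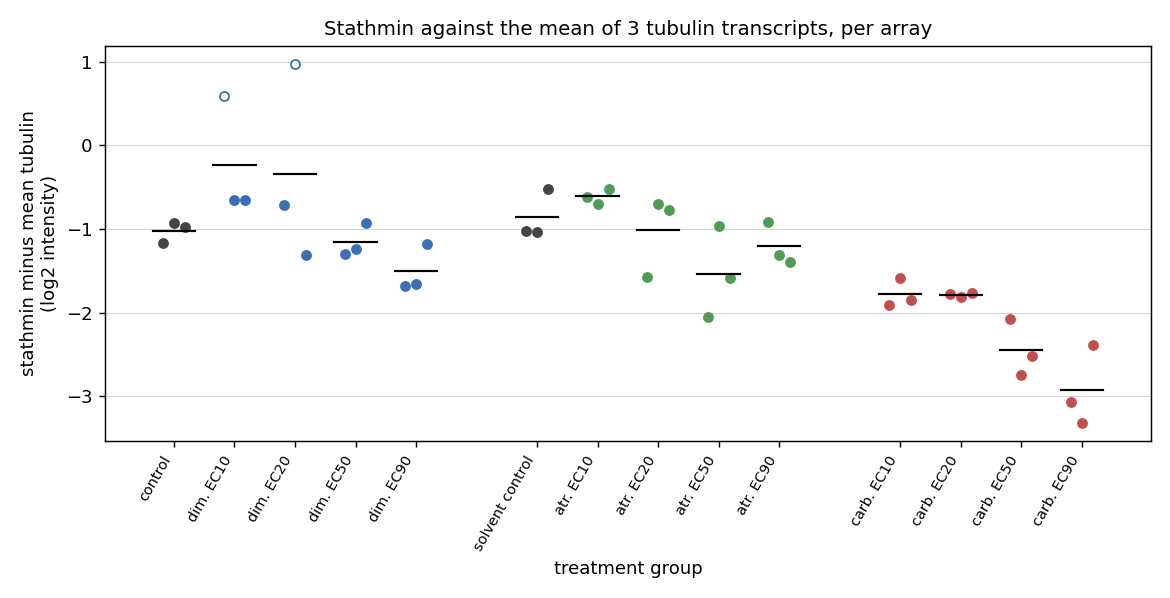
Stathmin minus the mean of alpha, beta and beta-2b tubulin in log2 intensity (vertical axis) on each of 42 arrays, by treatment group (horizontal axis); points are arrays, short lines are means of 3 arrays, and open points are the arrays of the deviating scan. The carbendazim arrays lie between -3.32 and -1.58, and the solvent control arrays between -1.03 and -0.52.

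The 12 carbendazim arrays averaged -2.24 (SD 0.57) and the 3 solvent control arrays -0.86 (SD 0.29), a difference of -1.38 (exact two-sided permutation p = 0.0022, the smallest this design allows, and 0.00769 after adjustment over 7 such tests). EC50 and EC90 together averaged -2.69 (SD 0.46) and EC10 and EC20 together -1.78 (SD 0.11), a difference of -0.90 (exact permutation p = 0.00216, also the smallest possible, adjusted 0.00769). Without solvent control replicate 3 the first of these was -1.21 with an adjusted p of 0.0513. Within 1 slide, 5 arrays of carbendazim EC50 and EC90 averaged -2.56 against -1.02 in 1 solvent control array, and no slide held both the lower and the higher carbendazim concentrations. The study's list was made from t-tests on the same arrays, so neither test is independent of the choice of members.

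In dimethoate the same difference was lower at EC50 and EC90 than at EC10 and EC20. Water control arrays had -1.17, -0.93 and -0.98. EC10 arrays had 0.59, -0.65 and -0.65, and EC20 arrays had -0.71, 0.98 and -1.31, where 0.59 and 0.98 belong to the deviating scan. EC50 arrays had -1.30, -1.24 and -0.93, and EC90 arrays had -1.68, -1.65 and -1.18. EC50 and EC90 averaged -1.33 against -0.29 in EC10 and EC20 (difference -1.04, exact permutation p = 0.0108, adjusted 0.0253), and -0.50 was left of it without the deviating arrays (adjusted p = 0.0917). The adjusted p was 0.0606 without EC50 replicate 1, EC90 replicate 1 or EC90 replicate 2, and 0.0556 without EC50 replicate 2. All dimethoate arrays together differed from the control by 0.21 (exact permutation p = 0.763).

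Atrazine arrays lay between -2.05 and -0.52. EC50 and EC90 averaged -1.37 and EC10 and EC20 -0.81, a difference of -0.56 (exact permutation p = 0.0346, adjusted 0.0606), which had an adjusted p of 0.0152 without atrazine EC20 replicate 1 and 0.0455 without EC90 replicate 1. In the slide that held both, 1 array of EC50 was at -0.96, against a mean of -0.64 in 2 arrays of EC10 and EC20. All atrazine arrays together averaged -1.09 against -0.86 in the solvent control (difference -0.23, exact permutation p = 0.44). The solvent control and the control averaged -0.86 and -1.03, a difference of 0.17 (exact permutation p = 0.6, where 3 against 3 arrays allow no p below 0.1).

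Over the 14 group means stathmin ran opposite to alpha tubulin (Pearson r -0.82), beta tubulin (-0.81) and, less closely, beta-2b tubulin (-0.52). The groups share slides and the scaling of the arrays, so the points are not independent. Within groups, over 42 arrays, the same pairs had r of -0.14, -0.21 and -0.42. Both kinds of r include the arrays of the deviating scan, and neither was computed without them. That scan held the highest stathmin value, 8.51, and the lowest values of alpha, beta and beta-2b tubulin, 7.40, 9.10 and 5.95. Among the tubulins the group means of alpha and beta tubulin had r of 0.71, those of alpha and beta-2b tubulin 0.61, and those of beta and beta-2b tubulin 0.31.

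The transcript most like stathmin was mads flc-like protein 2 (EAC01006, Ealb_Pest_P4_H9_SP6_2091892), with r of 1.00 over the 14 group means. On each of the 42 arrays the probes of these 2 transcripts gave nearly the same value, with differences between -0.06 and 0.06 log2 (SD 0.02), and within groups r was 0.996 against 0.805 for the transcript next in order. Its changes at carbendazim EC50 and EC90 were -1.11 and -1.32 (adjusted p = 0.0247 and 0.000987). Whether both probes bind the same RNA cannot be told without their sequences, which were not used here, and the change of this transcript is not counted beside that of stathmin. A high within-group r alone was common on the array, as 172 of 1035 transcripts had another with a within-group r over 0.98. Pairs that also had nearly equal values were not counted, and these r include the arrays of the deviating scan. For the tubulins the highest such r was 0.68 for alpha tubulin, 0.91 for beta tubulin and 0.94 for beta-2b tubulin.

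The next most similar to stathmin over group means were the sequence P5_E4_T7_1329817, which has no name here (r 0.87), and ADP-ribosylation factor-like protein 2-binding protein (EAC00579, r 0.84). The most opposite were lombricine kinase (EAC00260, r -0.87), the annelid counterpart of creatine kinase, gl12416-like (EAC00354, r -0.86) and ovulatory protein-2 precursor (EAC00513, r -0.85). Both alpha and beta tubulin had gl12416-like among the 3 transcripts most like them, with r of 0.82 and 0.88. Lombricine kinase (r 0.87) and the unnamed P2_A2_T7_1328901 (0.85) were also close to alpha tubulin. Type alpha isoform cra_b (EAC00390, r 0.93) and the unnamed Contig20 (0.91) were close to beta tubulin. Beta-2b tubulin was most like myosin heavy chain (EAC00108, r 0.94), a motor protein of muscle, the unnamed Contig61 (0.93) and ribosomal protein l3 (EAC00208, 0.92).

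A further 6 transcripts of tubulin folding and of microtubules had a name. The first 3 are subunits of the cytosolic chaperonin that folds newly made tubulin and actin (chaperonin containing subunit 7, chaperonin containing subunit 8 and t-complex protein 1 subunit beta). ADP-ribosylation factor-like protein 2-binding protein binds a small GTPase that takes part in tubulin assembly in mammals, tektin 2 is a filament protein of cilia and sperm tails, and gl12416-like was listed by the study among genes of microtubule-based movement. In 72 contrasts of these 6 with their controls limma called 0, where 0% to 3.77% of all transcripts passed in each contrast. An unadjusted limma p under 0.05 was found in 10, and 9.44% of all transcripts reached it over the same 12 contrasts. The median change of the list lay between -0.20 and 0.24 log2 over the 12 contrasts, and the median of all transcripts between -0.06 and 0.05.

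**Figure D4:**
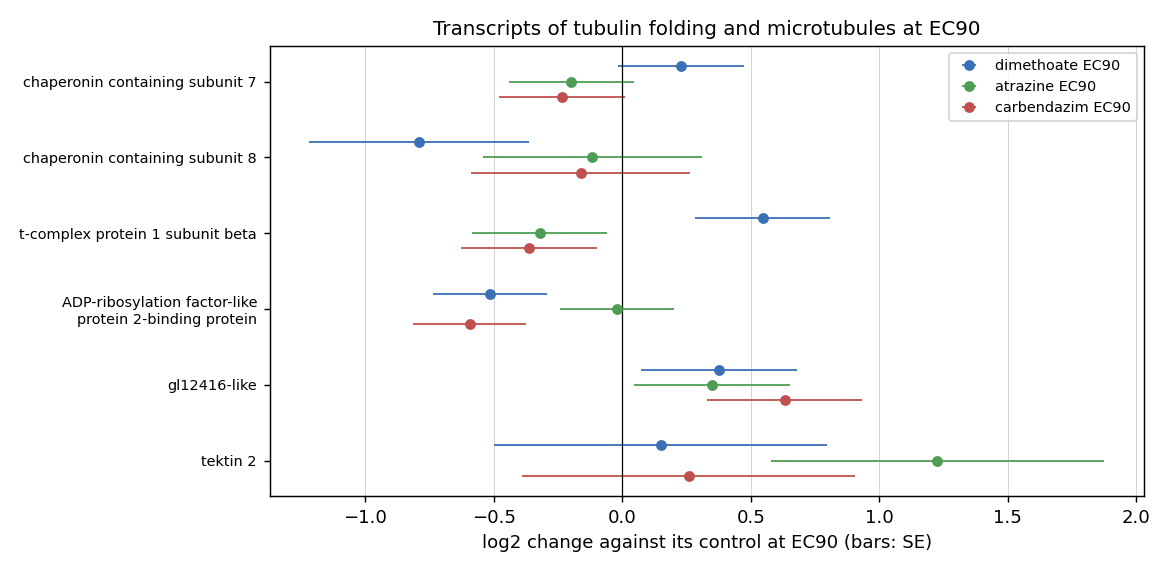
Log2 change against its control at EC90 (horizontal axis) of 6 transcripts of tubulin folding and microtubules (vertical axis) after dimethoate, atrazine and carbendazim; points are limma estimates and bars standard errors. After dimethoate, chaperonin containing subunit 8 lies at -0.79, and after carbendazim, gl12416-like lies at 0.63.

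At EC90 the largest change of the list after dimethoate was that of chaperonin containing subunit 8 (-0.79, SE 0.43, adjusted p = 0.636), and after carbendazim that of gl12416-like (0.63, SE 0.30, adjusted p = 0.284). After atrazine it was tektin 2 (1.23, SE 0.65, adjusted p = 0.552), which was well above background on only 5 of 42 arrays. ADP-ribosylation factor-like protein 2-binding protein was the only one of the list called in any contrast within a pesticide, and it was lower in dimethoate EC50 and EC90 than in EC10 and EC20 (log2 change -0.51, SE 0.16, adjusted p = 0.0243), in the contrast in which 17.3% of all transcripts passed. Without the arrays of the deviating scan this change was -0.28 (adjusted p = 0.232), and chaperonin containing subunit 8 was called instead, at -1.05 (adjusted p = 0.0415) against -0.78 (adjusted p = 0.0672) with them. Without these arrays 7.92% of all transcripts passed. At EC90 the values of the binding protein were -0.51 after dimethoate and -0.59 after carbendazim (adjusted p = 0.382 and 0.133).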

How the data were processed

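Per the file headers, the intensities that the authors deposited for 42 one-colour Agilent arrays came from Feature Extraction 10.5.1.1, which had subtracted the background and corrected spatial trends, without a scaling between arrays. Outlier spots, 421 to 1070 per array, were dropped. The other spots of a transcript, out of 14 to 15, were averaged and log2 transformed, and each array was moved by its median deviation from a median array, by -1.29 to 0.50 log2. Adult worms of 3 vessels per treatment, in 25 g of soil each, gave 1 array per vessel, and the methods and the labels give different numbers of worms per vessel. Among 861 pairs of arrays the highest correlation was 0.9946.

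The arrays carry sequence names and the study's list carries transcript numbers. They were linked by the 12 log2 ratios of each listed transcript, used only as a key. A sequence was found for each of 225 listed transcripts. For the 4 members its ratios differed by 5.8e-06 log2 or less, and those of the second closest sequence by 0.101 or more.

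Changes were tested with limma 3.58.1 (lmFit, eBayes) in R 4.3.3. One model held 14 group means (residual degrees of freedom 28, prior 3.94). P values were adjusted by Benjamini-Hochberg within a contrast, over 1035 transcripts. They come from limma unless the methods' t-test, a 2 sample test with equal variances, is named. In the trend the control scored 0 and the concentrations 1 to 4. Stathmin minus tubulin was tested by exact two-sided permutation over arrays, adjusted over 7 tests. With 3 arrays per group their number limits the precision. Replicates are separate vessels. Same-numbered samples did not deviate together in every pair, so the replicate number is a block only in an alternative.

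Named transcripts are the members, the list of 6 for tubulin folding and microtubules, the 3 transcripts most like each member and the 3 most opposite to stathmin by Pearson r over group means. Members and lists were chosen with earlier results of these data known. Alternatives were 75th percentile scaling, quantile normalization, normexp background correction (offset 50, on the median signals of spot and local background), all spots averaged as log2 values, leaving out dim transcripts, slide or replicate number as a block, only the compared groups, the t-test of the methods, beta tubulin alone, and leaving out single arrays or both arrays of the deviating scan. The limma contrast, the trend and the t-test were tested on simulated data without slide or scan effects. The permutations, the linking of names and the normalization were not. Python 3.11.15 with numpy 2.4.6, pandas 2.3.3 and matplotlib 3.10.9 was used for the permutations and figures.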

Additional observations from a re-analysis of the deposited data

Results flagged for a closer look

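Stathmin differed between pesticides at the EC90, with 6.09, 6.07 and 6.46 after carbendazim and 7.59, 7.50 and 7.09 after atrazine, a difference of -1.18 log2 that passed limma's test of the difference itself (adjusted p = 0.004). The concentrations were 3 mg per kg of carbendazim and 50 mg per kg of atrazine. Both groups are set against the same solvent control, which cancels in the difference. No slide held arrays of both groups, and with slide as a fixed block the difference was -0.53 (adjusted p = 0.978). In a model of only these groups the adjusted p was 0.0582. Groups of 3 arrays were not searched for single deviating arrays.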

How the results depend on the processing

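The slide as a fixed block removed every limma call among the members, with 0 left among the changes after carbendazim, the trends, the higher against lower concentrations and the differences between pesticides. Stathmin then changed by -0.85 at carbendazim EC50 (adjusted p = 0.958), -0.98 at EC90 (0.292) and -0.26 per step in the trend (0.617). EC50 and EC90 against EC10 and EC20 gave -0.70 for stathmin (0.552) and 0.71 for beta tubulin (0.612) in dimethoate and -0.69 for stathmin in carbendazim (0.998). The difference of carbendazim minus atrazine EC90 was -0.53 (0.978). As each slide holds only some groups, this block compares groups within fewer arrays, and the slide as a random block (consensus correlation 0.0467) kept all calls except that of beta tubulin in dimethoate, at 0.66 (0.0701).

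Among other alternatives, the 75th percentile scaling gave -0.94 for stathmin at carbendazim EC50 (adjusted p = 0.113) and normexp -0.74 (0.0519), each with 1 call left among 16 changes. Stathmin was at -1.10 at EC50 and -1.30 at EC90 with only the compared groups (0.104 and 0.0515) and in the adjusted t-test of the methods (0.222 and 0.177), each with 0 calls left. That t-test without adjustment gave 7 for carbendazim and 4 for dimethoate, against 10% of all transcripts over the 12 contrasts with a control. The carbendazim trend of stathmin was lost only with the slide as a fixed block. For higher against lower dimethoate concentrations, stathmin was at -0.26 under normexp (0.1), at -0.58 with only the compared groups (0.191) and in the adjusted t-test (0.104), and at -0.41 without the deviating scan (0.14). Beta tubulin was there at 0.61 under both the 75th percentile scaling (0.0539) and quantile normalization (0.0578), at 0.68 with only the compared groups (0.271) and in the adjusted t-test (0.201), and at 0.28 without the deviating scan (0.406). Of 12 such contrasts 3 were called, against 1 with only the compared groups, 1 in the adjusted t-test and 6 in the unadjusted one. Carbendazim minus atrazine EC90 of stathmin was -1.18 with only those groups (0.0582). Of 12 trends 1 was called, against 2 with only the compared groups and 3 without the deviating scan, and of 48 differences 1, against 2 under either. Stathmin minus tubulin in the higher against the lower dimethoate concentrations was -0.50 without the deviating scan (adjusted permutation p = 0.0917). The replicate block changed no call, and with it stathmin at carbendazim EC50 had an adjusted p of 0.0363 and at EC90 of 0.00164, at unchanged -1.10 and -1.30. For the other counts in this section, the share of all transcripts called under the same alternative is not given. A changed count of calls is therefore not read as a result about the members.

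The values that turned direction were all uncalled. Without the deviating scan, alpha tubulin was at 0.084 in dimethoate EC20 and -0.034 in the higher against lower concentrations, beta tubulin at 0.12 in EC10 and 0.36 in EC20, the trend of beta-2b tubulin at -0.012, and stathmin minus tubulin in all dimethoate arrays at -0.11. With the slide as a fixed block, in atrazine, alpha tubulin was at 0.28 in EC10, -0.48 in EC90, -0.10 in the trend and -0.64 in higher against lower concentrations, beta tubulin at -0.071 in EC10 and 0.13 in higher against lower concentrations, and beta-2b tubulin at 0.24 in EC10. The same block gave alpha tubulin -0.20 in higher against lower carbendazim concentrations and beta tubulin -0.75 in the solvent control against the control. The 75th percentile scaling gave beta tubulin 0.10 in higher against lower atrazine concentrations and -0.21 between controls, the dimethoate trend of beta-2b tubulin -0.014, and stathmin 0.081 in atrazine EC50 and 0.055 in EC90. Quantile normalization gave 0.0054 for beta tubulin in higher against lower atrazine concentrations, -0.013 for the dimethoate trend of beta-2b tubulin and 0.11 for stathmin between controls. Normexp gave alpha tubulin 0.10 in atrazine EC10 and beta tubulin -0.045 between controls. With beta tubulin alone as the tubulin, stathmin minus tubulin was at -0.074 in all dimethoate arrays and -0.14 between controls. The cause of these changes was not tested.

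With 1 array left out at a time, stathmin stayed called at carbendazim EC90, in the carbendazim trend and in carbendazim minus atrazine EC90. It ranged between -1.25 and -0.83 at carbendazim EC50, and between -0.85 and -0.74 in higher against lower carbendazim and -0.71 and -0.45 in higher against lower dimethoate concentrations, where beta tubulin ranged between 0.46 and 0.82. The last of these lost its call without dimethoate EC10 replicate 1, EC20 replicate 2, EC50 replicate 1 or EC90 replicate 1. Calls numbered 1 to 2 among 16 carbendazim changes and 1 to 4 among 12 contrasts of higher against lower concentrations. Stathmin minus tubulin ranged between -1.24 and -0.78 in higher against lower dimethoate, -0.71 and -0.42 in higher against lower atrazine, -1.47 and -1.21 in all carbendazim and, between controls, between -0.0016 and 0.26. Uncalled values of either sign were those of alpha tubulin in dimethoate EC20 (-0.49 to 0.084), atrazine EC10 (-0.41 to 0.17), atrazine EC90 (-0.23 to 0.25) and higher against lower carbendazim (-0.030 to 0.34), of beta tubulin in dimethoate EC10 (-0.48 to 0.12), dimethoate EC20 (-0.36 to 0.36), atrazine EC50 (-0.047 to 0.37), carbendazim EC20 (-0.032 to 0.44), higher against lower atrazine (-0.16 to 0.048) and between controls (-0.12 to 0.30), of beta-2b tubulin in atrazine EC20 (-0.082 to 0.24) and the dimethoate trend (-0.012 to 0.039), and of stathmin in atrazine EC20 (-0.031 to 0.40), atrazine EC50 (-0.35 to 0.061), atrazine EC90 (-0.26 to 0.15) and between controls (-0.32 to 0.091). All members lay well above background on all arrays, and how far their signal over background limits these values was not tested.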
